A study of Mus musculus with 23 samples.

Results

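The 6 genes that make up the natriuretic peptide system of the heart were followed through left ventricle RNA of mice that breathed e-cigarette aerosol or filtered air. They are Nppa and Nppb, which encode the atrial and brain natriuretic peptides, Npr1, Npr2 and Npr3, which encode their receptors, and Corin, which encodes a protease. The genes were chosen by name, and all 6 were found among the 49315 genes of the deposited count table and among the 15500 genes that passed the filter on low counts. Natriuretic peptides are hormones that heart muscle releases when its walls are stretched, and they lower blood pressure by promoting salt excretion and relaxing vessels. Corin, a membrane protease of cardiomyocytes, cuts the precursor of atrial natriuretic peptide to its active form. Npr1 is the guanylyl cyclase receptor of both cardiac peptides, Npr2 is the cyclase receptor of the related C-type peptide, and Npr3 takes up and clears the peptides. In the adult ventricle Nppb and Nppa are widely used as markers of load and hypertrophy, since both are high in the fetal ventricle, decline after birth and return under stress.

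The mice were of the strain FVB, and the 23 libraries fall into 6 groups. The 3-week groups started exposure at an age of 3 weeks with filtered air (n = 4), with aerosol of the e-cigarette vehicle (n = 3) or with aerosol of vehicle and nicotine (n = 4). The 3-month groups started at 3 months with the same treatments (n = 4 each). Every group was exposed for 3 months, on 5 days of the week and for 4 hours of the day, so the age at which exposure began and the age at which it ended cannot be told apart. Left ventricles were flash frozen, and RNA was taken from whole tissue, so fewer cells of a type and less RNA per cell cannot be told apart. Neither sex nor batch is given in the labels, which also do not say that libraries are from separate animals, so p-values measure only sample-to-sample spread, part of which may be technical. Replicates are named by their numbers in the labels.

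Library totals ran from 12297955 to 17821550 counts, and each of the 6 genes had at least 148 counts in every library. Levels are given as CPM (counts scaled to a common library size) after scaling by the TMM method of edgeR. Markers of ventricular cardiomyocytes summed to between 75907 and 96425 CPM, while 4 markers of lung epithelium summed to at most 0.748 CPM. Several libraries stood apart. In 3-week vehicle libraries 1 and 2 and 3-week nicotine libraries 2 and 5, the rank correlation between level and exonic length across genes was 0.235 to 0.247, against 0.258 to 0.310 in the other 19 libraries. Myl7, the atrial myosin light chain, reached 68.3 CPM in 3-week vehicle library 2, 40.6 in 3-month air library 5 and 33.6 in 3-week air library 1, against at most 14.3 CPM elsewhere and 0 counts in 7 libraries. Differences past or near the threshold that rest on these libraries are given with and without them.

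Nppa and Nppb are neighbours on mouse chromosome 4, with start sites 14822 bases apart. Their promoters are shown because the 2 peptide genes share a locus and because Nppb had the smallest p of the 6 in any comparison. Each stretch holds the 250 bases before the RefSeq start site in build GRCm38.p6, plus strand, chr4:148000472-148000721 for Nppa and chr4:147985650-147985899 for Nppb, written 5′ to 3′. Capitals mark matches, on either strand, to GATAA (the GATA factor motif), TATAAA (the TATA box) and CATTCC (the TEAD motif). 
Nppa: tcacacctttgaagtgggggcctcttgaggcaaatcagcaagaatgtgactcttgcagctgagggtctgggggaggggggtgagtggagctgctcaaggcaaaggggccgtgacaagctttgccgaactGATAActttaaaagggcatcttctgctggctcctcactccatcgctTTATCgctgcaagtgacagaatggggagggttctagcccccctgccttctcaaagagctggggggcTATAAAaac
Nppb: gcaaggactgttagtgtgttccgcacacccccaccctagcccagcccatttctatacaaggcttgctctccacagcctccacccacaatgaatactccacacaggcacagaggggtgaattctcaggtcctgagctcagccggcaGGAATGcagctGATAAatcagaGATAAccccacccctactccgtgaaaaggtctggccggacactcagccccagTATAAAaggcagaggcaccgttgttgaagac
Each promoter holds 2 matches to GATAA, starting 121 and 75 bases before the start site in Nppa and 94 and 83 bases before it in Nppb. A GATAA match is present in 22.6% of 32851 promoters of that length. Each also holds 1 TATAAA, at 9 bases before the start in Nppa and at 31 bases in Nppb, a motif found in 12.4% of promoters. Only Nppb of the 6 genes has a CATTCC match (12.6% of promoters), and only Nppa has AAGTG, a core of the NKX2-5 motif, in 2 places (40.7% of promoters). No exact match to TGANTCA (the AP-1 motif, 6.7% of promoters) or to the CArG box bound by SRF (1.5%) was found in any of the 6 windows. The CArG search took only CC, then 6 bases of A or T, then GG. Right after its first GATAA, the Nppa window holds ctttaaaagg, which differs from that form in 1 base. The windows of Npr1, Npr2, Npr3 and Corin hold no match to any of the 6 motifs. A match is a stretch of letters and not a measured binding site.

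Per kilobase of exon, the ventricle held far more transcript of the peptides than of their receptors. Nppb had a mean over the 23 libraries of 489 CPM per kb and ranked 84th among the genes tested, and Nppa had 178 CPM per kb and ranked 250th. Corin followed at 37.7 CPM per kb, then Npr2 at 16.4, Npr1 at 9.40 and Npr3 at 2.40. The same order held within each of the 23 libraries. Across libraries the ranges of neighbours met, as between Nppb (194 to 903 CPM per kb) and Nppa (78.6 to 374), between Corin (20.7 to 54.6) and Npr2 (14.1 to 23.5), and between Npr2 and Npr1 (6.17 to 16.3), whereas Nppa and Corin were apart, as were Npr1 and Npr3 (1.16 to 3.64).

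Nppb was lower in nicotine-exposed than in air-exposed ventricles after a start at 3 weeks, and higher after a start at 3 months. In 3-week air, Nppb was at 387, 441, 195 and 386 CPM in libraries 1, 2, 4 and 5. In 3-week nicotine it was at 205, 181, 209 and 152 CPM in libraries 2, 3, 5 and 6. Every nicotine library thus lay under 3 of the 4 air libraries, and 2 of them lay under all 4, with air library 4 inside the nicotine range. The difference was -0.92 ± 0.25 log2 (SE), or 0.530 of the air level, and did not pass the threshold (edgeR adjusted p = 0.0789). In that comparison 0.813% of the genes tested passed, and none of the 6 genes was among them. DESeq2, under which 3.08% of genes passed, called Nppb (adjusted p = 0.0118), as did edgeR without air library 4 (-1.12 log2, adjusted p = 0.00885) and edgeR with an offset for exonic length (adjusted p = 0.0436). The other 14 of 17 alternatives did not call it, with the replicate block at 0.301, the 8 compared libraries alone at 0.310, air libraries 1 and 5 left out at 0.678 and nicotine libraries 2 and 5 left out at -1.09 log2 and 0.158 (edgeR adjusted p). The authors' deposited table, which rests on the 8 libraries of the comparison, gives Nppb a log2 fold change of -0.928 and an adjusted p of 0.0256.

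After a start at 3 months the order was the opposite. Nppb was at 415, 297, 362 and 221 CPM in air libraries 1, 2, 4 and 5, and at 533, 705, 478 and 521 CPM in nicotine libraries 1 to 4. The groups did not overlap, but how many of all genes separate in this way was not counted in this or any other comparison. The difference was 0.79 ± 0.25 log2, or 1.73-fold, with an edgeR adjusted p of 1 (0.9998), in a comparison where 0% of the 15500 genes passed, 408 had an unadjusted p under 0.05 and 2 were called by DESeq2. The authors' deposited table gives 0.777 and an adjusted p of 0.131. The difference between the 2 nicotine effects was -1.70 ± 0.35 log2, with an unadjusted p of 7.895e-05 and an edgeR adjusted p of 0.0501, just over the threshold that 0.135% of genes passed. It was -1.51 to -1.90 under every alternative run, and 6 of 25 alternatives placed Nppb past the threshold. DESeq2 gave an adjusted p of 0.000855, with 1.37% of genes past it, RLE scaling 0.0390, the length offset 0.0190 and the 4 compared groups alone 0.0434. Leaving out 3-week air library 2 or 4 gave 0.0424 and 0.00436, whereas leaving out the 3 libraries of highest Myl7 gave 0.101, and leaving out 3-week nicotine libraries 2 and 5 gave 0.0785.

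**Figure D1:**
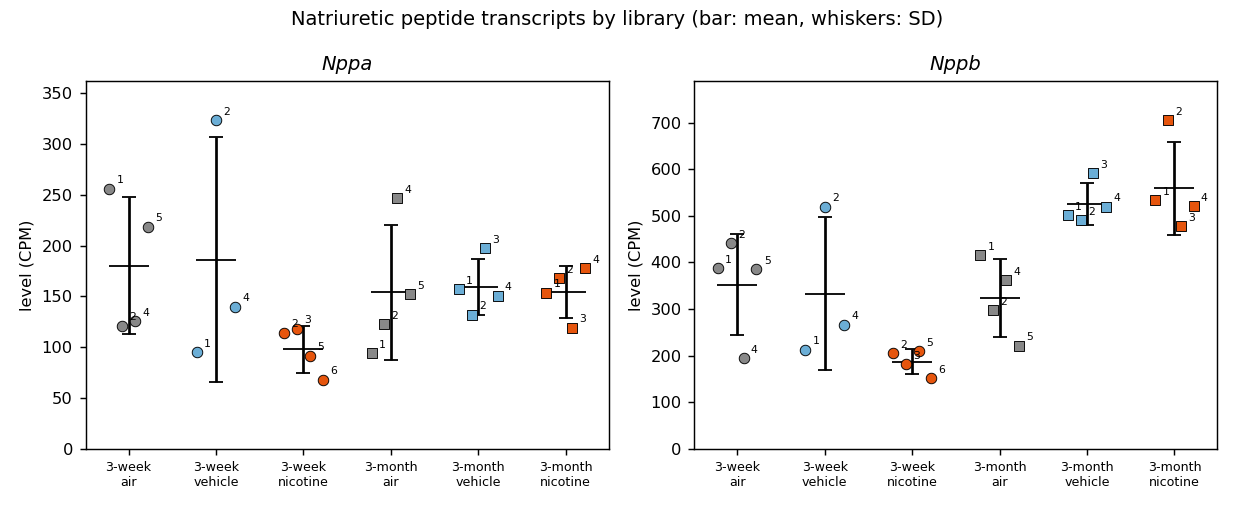
Levels of Nppa and Nppb (y axis, CPM) in each library of the 6 groups (x axis), with the replicate number beside each point, a bar at the group mean and whiskers of 1 SD. Nppb is at 152 to 209 CPM in all 4 libraries of 3-week nicotine and at 478 to 705 CPM in all 4 of 3-month nicotine.

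Nppb with vehicle aerosol alone stood above air at the later start, and overlapped air at the earlier one. In 3-month vehicle Nppb was at 501, 491, 592 and 520.0 CPM in libraries 1 to 4, each above every air library (0.70 ± 0.25 log2, 1.62-fold, edgeR adjusted p = 0.299, with 0% of genes past the threshold, 2200 at an unadjusted p under 0.05 and 86 called by DESeq2). Fitted on the 8 libraries of these groups alone, where 18.4% of genes passed, 2 of the 6 genes passed, Nppb (adjusted p = 0.0174) and Npr1. With the offset for exonic length the difference was 0.50 log2 (adjusted p = 0.388). Rank correlations of level with length were 0.258 to 0.271 in the 4 vehicle libraries and 0.286 to 0.309 in the 4 air libraries of this age, and apart from this fit their part in the result was not tested. In 3-week vehicle Nppb was at 212, 519.7 and 266 CPM in libraries 1, 2 and 4, with 1 library above every air library and the others inside the air range. The vehicle effects at the 2 ages differed by -0.78 ± 0.37 log2 (adjusted p = 0.406), in a test that 0% of genes passed. There 1861 genes had an unadjusted p under 0.05, and 81 were called by DESeq2.

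Between nicotine and vehicle, Nppb was lower with nicotine at the earlier start, with every nicotine library under every vehicle library (-0.83 ± 0.27 log2, edgeR adjusted p = 0.153). The margin was small, with nicotine library 5 at 209.3 CPM and vehicle library 1 at 212.5 CPM. No gene passed in this comparison in edgeR (0% of 15500, with 2992 at an unadjusted p under 0.05 and 254 called by DESeq2). Without vehicle library 4, 30.3% of genes passed, and so did 5 of the 6, all but Npr3 (Nppb adjusted p = 0.0211, Nppa 0.0491). Without nicotine libraries 2 and 5, 16.9% of genes passed, and 3 of the 6 did, namely Nppb (-0.99 log2, edgeR adjusted p = 0.0470), Npr1 (-0.69, 0.0331) and Corin (0.89, 0.0268). Leaving out 1 library at a time gave -1.06 to -0.38 log2 for Nppb (edgeR adjusted p = 0.0211 to 0.602). Over all 16 alternatives Nppb was at -1.06 to -0.36 log2, and the 2 that called it are those given above. With vehicle libraries 1 and 2 both left out, the difference for Nppb was -0.54 log2 for the single vehicle library left. At the later start the 2 aerosols overlapped, at 478 to 705 CPM with nicotine and 491 to 592 CPM with vehicle. These comparisons share their libraries with those above. Markers of blood, 5 of 6 of them measured, summed to 1087 to 1406 CPM in 3-week nicotine, above the 505 to 931 CPM of 3-week air, while 3-week vehicle spanned 467 to 2363 CPM. The 7 macrophage markers summed to 132 to 188 CPM in 3-week nicotine, 178 to 235 CPM in 3-week air and 174 to 203 CPM in 3-week vehicle. Between nicotine and air 4 markers of each of these lists had an unadjusted p under 0.05 and 0 passed the threshold, and their part in the lower Nppb and Nppa levels was not tested.

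Nppa, the atrial peptide gene, was lower in all 4 libraries of 3-week nicotine than in any of 3-week air, but the air libraries were far apart. Nppa was at 256, 121, 126 and 218 CPM in air libraries 1, 2, 4 and 5 and at 114, 118, 91.7 and 68.0 CPM in nicotine libraries 2, 3, 5 and 6. The difference was -0.88 ± 0.33 log2 with all libraries (edgeR adjusted p = 0.233) and -0.35 without air libraries 1 and 5 (adjusted p = 0.9999). Without nicotine libraries 2 and 5 it was -0.96 (adjusted p = 0.397). The authors' deposited table gives Nppa a log2 fold change of -0.889 for nicotine against air and an adjusted p of 0.0828. In 3-week vehicle Nppa was at 95.3, 323 and 139.7 CPM in libraries 1, 2 and 4. Library 2 held the highest level of all 23. Against vehicle, Nppa with nicotine was -0.92 ± 0.35 log2 (adjusted p = 0.183), and -0.28 without vehicle library 2. After a start at 3 months Nppa was at 94.3, 122, 247 and 152 CPM in air, at 157, 132, 198 and 151 CPM in vehicle and at 154, 168, 119 and 178 CPM in nicotine. These groups overlap throughout, and library 4 of air stands above every vehicle and nicotine library.

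The 2 libraries highest in Nppa also held the most transcript of atrial genes. In the adult heart Nppa is made mostly by atrial cardiomyocytes. The 11 markers of these cells summed to 332 CPM in 3-week vehicle library 2, 307 in 3-week air library 1 and 275 in 3-month air library 5, and to 112 to 181 CPM in the other 20 libraries. The third of these, 3-month air library 5, had Nppa at 152 CPM, and the libraries with the next sums, 3-week air library 5 and 3-month air library 2, had it at 218 and 122 CPM. In 3-week air library 5, Myl7 was at 0 CPM and Kcna5 at 72.8 CPM, its highest level. Myl4, another atrial light chain, ranged from 1.32 to 98.9 CPM, and the defining markers Sln and Bmp10 had 0 counts in 8 and 7 libraries. After the 3 libraries of highest Myl7, the next in both light chains was 3-month air library 4. It had Myl7 at 14.3, Myl4 at 20.5 and Nppa at 247 CPM. The library that followed in Myl4, 3-week nicotine library 5 at 16.3 CPM, had Nppa at 91.7 CPM. By group, the sums were 112 to 307 CPM in 3-week air, 126 to 332 in vehicle and 129 to 154 in nicotine, and 142 to 275, 129 to 157 and 141 to 175 CPM in the 3-month groups. None of the 10 measured atrial markers passed in any of the 9 comparisons. For vehicle against air after the 3-month start, 5 of the 10 had an unadjusted p under 0.05 (median -0.56 log2), as did 2200 of 15500 genes. For the difference of the vehicle effects 5 of the 10 did (median 1.26 log2), as did 1861 genes. In both of these 0% of all genes passed. In the other comparisons 0 to 2 of the 10 had an unadjusted p under 0.05. Without the 3 libraries of highest Myl7, the Nppb differences between nicotine and air were -0.87 log2 at the earlier and 0.64 log2 at the later start. For Nppa between nicotine and air at the earlier start, that refit was among 17 alternatives that gave -1.03 to -0.35 log2 and 0 calls. Between nicotine and vehicle it was among 16 that gave -1.23 to -0.26 log2 for Nppa and 1 call. That call came without vehicle library 4, where 30.3% of genes passed. The part of atrial RNA in the level of Nppa was not tested.

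**Figure D2:**
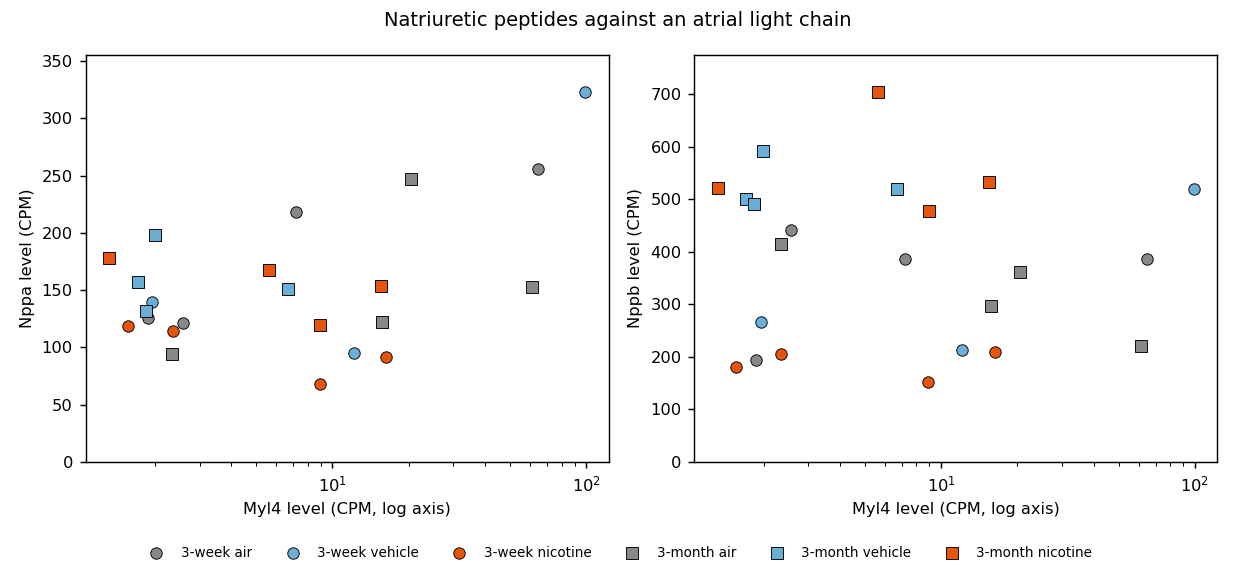
Nppa (left) and Nppb (right) in CPM against Myl4, the atrial light chain (CPM, log axis), 1 point per library coloured by group. The 2 libraries highest in Nppa, at 323 and 256 CPM, are those of highest Myl4, while 3-month air library 5, next in Myl4, has Nppa at 152 and Nppb at 221 CPM.

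The 2 peptide genes varied together over the libraries. Over all 23 libraries their log2 levels had a Pearson r of 0.572 (permutation p = 0.00426, adjusted over 15 pairs of the 6 genes 0.00913) and a Spearman rho of 0.596 (permutation p = 0.00342, adjusted 0.00855). The permutations shuffled the 23 libraries without regard to group, so these p-values also take in differences between groups. After removal of the group means r was 0.533. Within the 11 libraries of the 3-week start r was 0.833, and within the 12 of the 3-month start 0.157, a difference that was not tested. Without the 2 libraries farthest in Nppa r was 0.452, and without the 4 libraries of lowest length correlation 0.464.

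Npr1, the cyclase receptor of both cardiac peptides, was the one gene of the 6 past the threshold with all libraries in the fit. It was at 66.7, 78.1 and 42.5 CPM in 3-week vehicle libraries 1, 2 and 4, against 32.1, 53.3, 43.7 and 43.7 CPM in 3-week air libraries 1, 2, 4 and 5. Vehicle libraries 1 and 2 lay above every air library and library 4 inside the air range. Npr1 rose by 0.53 ± 0.18 log2, or 1.44-fold (edgeR adjusted p = 0.0485), in a comparison where 16.2% of all genes passed, and 1 of 6 is near that share. The call was lost without air library 1, 4 or 5 and without vehicle library 1 or 2 (adjusted p = 0.0664 to 0.289), and with vehicle libraries 1 and 2 both left out, taking the spread of the other groups for the single vehicle library left, the difference was -0.01 log2. Without vehicle library 4, 44% of genes passed, and with them Npr1 (0.71 log2), Npr2, Npr3 and Corin. It was also lost under RLE scaling (0.0566), without the filter on low counts (0.0962), with the replicate block (0.0726) and on the compared groups alone (0.306), and kept with the length offset (0.57 log2, adjusted p = 0.0406) and by DESeq2 (0.0427).

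At the later start Npr1 was again higher with vehicle, at 47.1, 45.9, 48.2 and 51.8 CPM against 37.9, 39.6, 33.2 and 29.5 CPM in air. The groups did not overlap, and the difference was 0.46 ± 0.17 log2 (1.38-fold). Its edgeR adjusted p was 0.307 in the fit of all libraries and 0.00533 on these 8 libraries alone, where 18.4% of genes passed. How many of all genes were without overlap between groups was not counted, here or in the other comparisons. Markers of endothelium, a cell type that expresses Npr1, summed to 1339 to 1573 CPM in 3-month vehicle and 1115 to 1335 CPM in 3-month air (8 of 8 measured). In 3-month nicotine they summed to 1346 to 1443 CPM. Between 3-month vehicle and air, 7 of the 8 were higher with vehicle (median 0.17 log2). Of the 8, 2 had an unadjusted p under 0.05, as did 2200 of 15500 genes, and 0 passed the threshold. After the 3-week start the sums overlapped, at 1213 to 1697 CPM in vehicle and 1043 to 1547 CPM in air. There 3 of the 8 markers were higher with vehicle (median -0.08 log2), and 1 passed, Egfl7, against 16.2% of all genes. The part of these markers' cells in the Npr1 level was not tested. In 3-month nicotine, Npr1 was at 44.1, 38.5, 37.8 and 35.4 CPM, under every vehicle library and overlapping the air libraries. That difference from vehicle was -0.31 ± 0.17 log2 (edgeR adjusted p = 0.424, with 0% of genes past the threshold, 1889 at an unadjusted p under 0.05 and 13 called by DESeq2). On the 8 compared libraries alone 15.8% of genes passed, and 2 of the 6 genes, Npr1 (adjusted p = 0.0134) and Corin. In 3-week nicotine Npr1 was at 53.2, 36.3, 55.2 and 40.7 CPM, and overlapped air.

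Npr2, the cyclase receptor of C-type natriuretic peptide, varied least of the 6, with a highest level 1.67 times its lowest. In 5 of the 6 groups its mean lay between 71.8 and 77.2 CPM, and in 3-week vehicle it was at 109.9, 92.1 and 69.2 CPM in libraries 1, 2 and 4, a difference from air of 0.29 ± 0.12 log2 (edgeR adjusted p = 0.0863). Without vehicle libraries 1 and 2 it was -0.08 log2. Nppc, which encodes the C-type peptide, was close to undetected at 0 to 0.201 CPM.

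Npr3, the clearance receptor, was the lowest of the 6 per kilobase, and ranged from 10.9 to 34.2 CPM. In air it was at 27.3, 15.8, 16.7 and 22.1 CPM after the 3-week start and at 27.0, 25.5, 34.2 and 32.5 CPM after the 3-month start (0.54 ± 0.24 log2, edgeR adjusted p = 0.504). In that comparison 0.00645% of genes passed, which is 1 gene. In 3-week vehicle and nicotine it was at 10.9, 12.4 and 24.8 CPM and at 12.4, 25.2, 13.8 and 16.0 CPM, and in 3-month vehicle and nicotine at 19.6 to 30.3 and 20.9 to 28.8 CPM. Ostn, which encodes a secreted ligand of this receptor, was at 0 to 0.253 CPM.

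Corin, the protease that activates the atrial peptide, had its lowest mean in the vehicle group of each starting age, 155 ± 59.9 CPM (SD, n = 3) and 182 ± 21.5 CPM (n = 4). In 3-week nicotine it was at 153, 283, 154 and 295 CPM in libraries 2, 3, 5 and 6, a split of 2 low and 2 high libraries within 1 group. In 3-week vehicle it was at 131, 112 and 224 CPM, and in 3-week air at 264, 165, 181 and 200.4 CPM. The difference with vehicle was -0.38 ± 0.24 log2 (edgeR adjusted p = 0.239), and 0.16 log2 without vehicle libraries 1 and 2. At the later start Corin was at 192, 249, 191 and 223 CPM in air, 209.5, 189, 165 and 165 CPM in vehicle and 212, 225, 246 and 252 CPM in nicotine. Every nicotine library lay above every vehicle library there, by 0.36 ± 0.22 log2 (edgeR adjusted p = 0.450). Corin passed on those 8 libraries alone (edgeR adjusted p = 0.0175), as did 15.8% of genes.

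**Figure D3:**
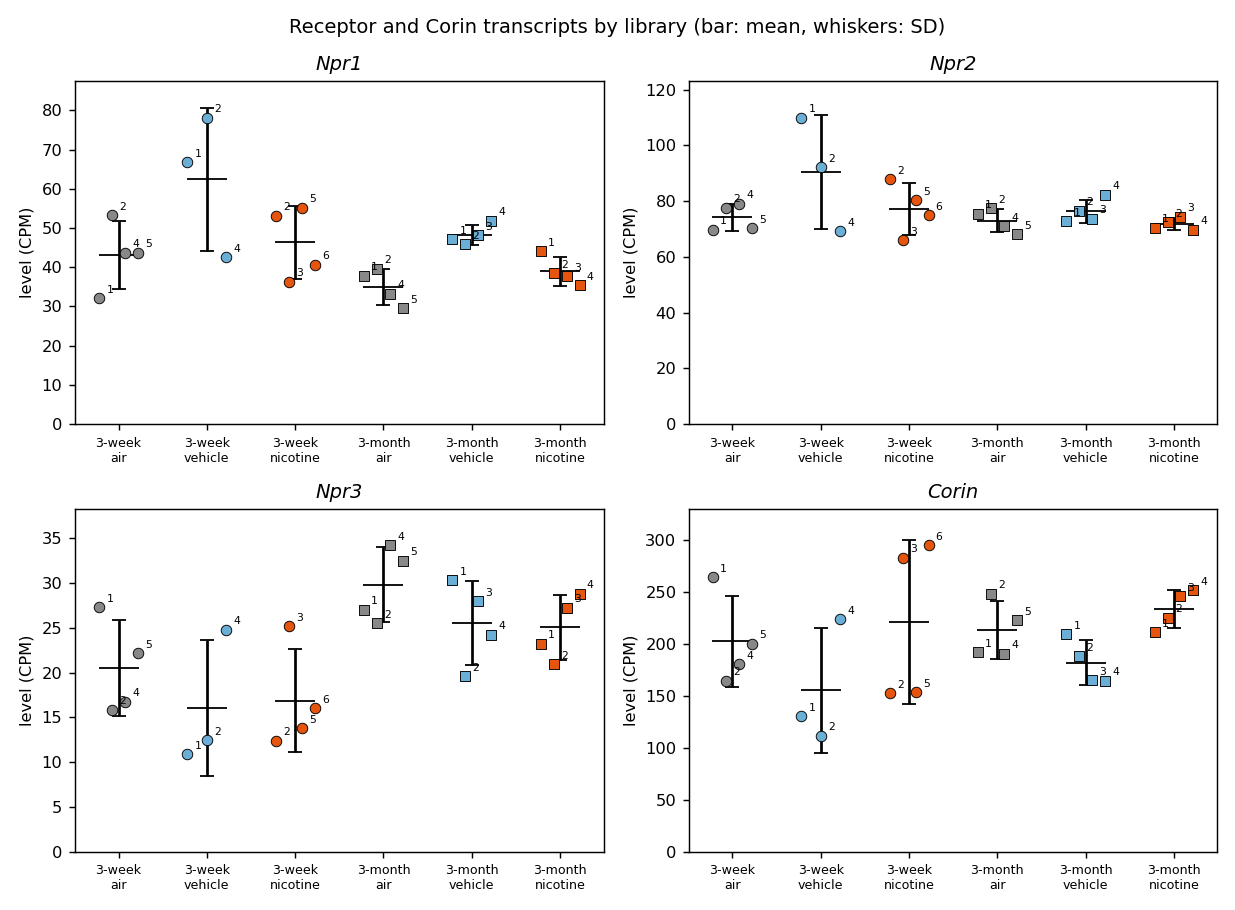
Levels of Npr1, Npr2, Npr3 and Corin (y axes, CPM, from 0) in each library of the 6 groups, with replicate numbers, means and whiskers of 1 SD. In 3-week vehicle, libraries 1 and 2 are high in Npr1 and Npr2 and low in Npr3 and Corin, and library 4 lies with the air libraries.

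**Figure D4:**
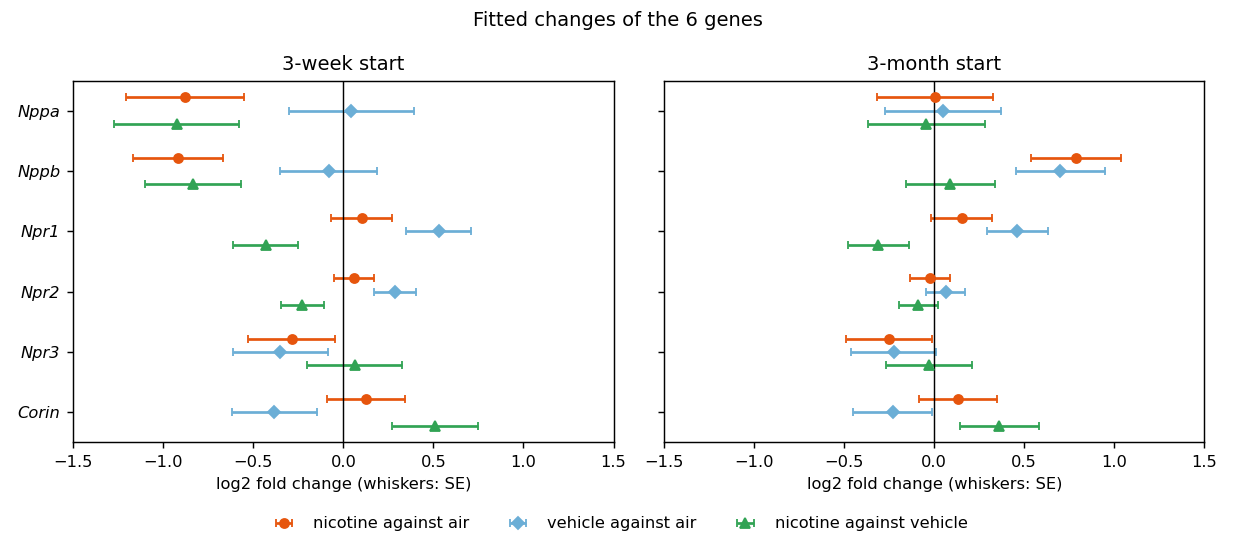
Fitted log2 fold changes of the 6 genes with whiskers of 1 SE, for the 3 comparisons at each starting age. Nppb lies at -0.92 log2 for nicotine against air after the 3-week start and at 0.79 log2 after the 3-month start, and Npr1 with vehicle lies at 0.53 and 0.46 log2.

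The receptors and Corin varied together from library to library. Libraries high in Npr1 were high in Npr2 (Pearson r = 0.807, Spearman rho = 0.759) and low in Corin (r = -0.836, rho = -0.801) and in Npr3 (r = -0.786, rho = -0.726), over 23 libraries. Permutation p-values for these r were 2e-05, 1e-05 and 1e-05, the last being the smallest that 100000 permutations can give, and for rho 7e-05, 2e-05 and 0.00014. Adjusted over 15 pairs, they were at most 6e-05 for r and 0.000525 for rho. These permutations too were made without regard to group. After removal of the group means r was 0.760 for Npr1 and Npr2 and -0.821 for Npr1 and Npr3. For Npr1 and Corin, r was -0.936 among the 11 younger and -0.563 among the 12 older libraries, -0.849 after removal of the group means and -0.709 without the 2 libraries farthest in Npr1. Without the 4 libraries of lowest length correlation, r over the remaining 19 was -0.612 for Npr1 and Corin, 0.625 for Npr1 and Npr2 and -0.537 for Npr1 and Npr3. Npr3 and Corin correlated at r = 0.611 (rho = 0.526, permutation p = 0.00198 and 0.0110, adjusted 0.00495 and 0.0235), with 0.795 among younger and 0.081 among older libraries, and 0.103 without those 4 libraries, so that it rests on them. The peptide genes had r of -0.034 (Nppa) and 0.049 (Nppb) with Npr1 over all libraries, and Nppb had 0.622 with it among the 12 older ones.

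The same libraries differed in properties that span many genes. The 4 libraries with rank correlations of level and length at or under 0.247 had Npr1 at 53.2 to 78.1 CPM and Corin at 112 to 154 CPM, against 29.5 to 53.3 CPM and 165 to 295 CPM in the other 19 libraries. Noncoding genes took 1.44 to 2.17% of counts in those 4 libraries and 0.901 to 1.37% in 18 of the others, the remaining library being 3-week nicotine library 3 at 2.87%, with Npr1 at 36.3 CPM. Their part in the levels of the receptors and Corin was not tested beyond the fit with the length offset.

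**Figure D5:**
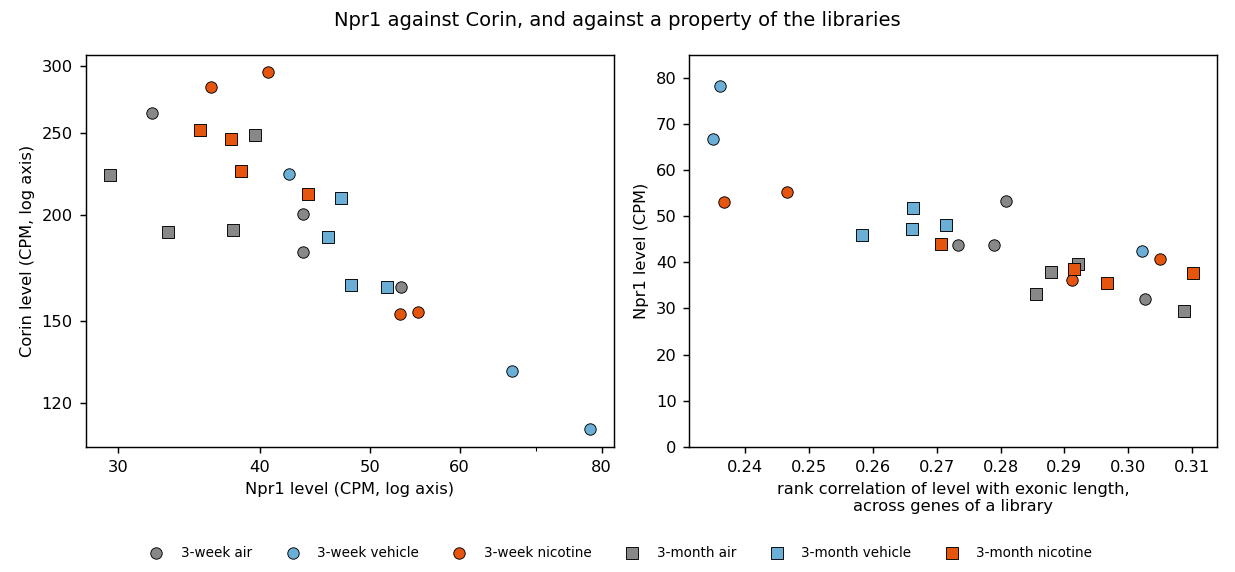
Left, Corin against Npr1 in CPM (both log axes), 1 point per library (Pearson r = -0.836 of log2 levels). The highest Corin, 295 CPM, is at an Npr1 of 40.7 CPM, and the lowest, 112 CPM, is at the highest Npr1 of 78.1 CPM. At the lowest Npr1, 29.5 CPM, Corin is at 223 CPM. Right, Npr1 (CPM) against the rank correlation of level with exonic length across the genes of each library, where the 4 libraries at or under 0.247 hold Npr1 at 53.2 to 78.1 CPM.

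Other genes of the pathway were read from 5 lists. Of 5 further ligands and receptors only Gucy2g, a guanylyl cyclase at 0.137 to 0.851 CPM, was high enough to test, and it did not pass in any comparison. Among 8 genes that mature or clear the peptides, 1 fell with vehicle after the 3-week start, against 16.2% of all genes called there, namely Furin, the convertase that cleaves the precursor of brain natriuretic peptide. Furin was at 64.4 to 91.6 CPM in vehicle and 86.8 to 147 CPM in air (-0.67 ± 0.17 log2, edgeR adjusted p = 0.0224). The other 7 did not pass in any comparison, among them Mme, which encodes neprilysin, the main peptidase that degrades these hormones, at 9.19 to 28.1 CPM over all libraries. The median of the 8 genes there was -0.36 log2, against 0.015 over all genes tested. Of 15 measured genes of cyclic GMP signalling and breakdown, 2 fell with nicotine after the 3-week start, where 0.813% of all genes passed. Pde10a, a cyclic nucleotide phosphodiesterase, was at 2.28 to 3.16 CPM with nicotine and 4.65 to 6.11 CPM in air (-1.02 ± 0.16 log2, adjusted p = 0.0121). Vasp, an actin regulator phosphorylated by cyclic GMP dependent kinase, fell by 0.77 ± 0.17 log2 to 35.6 to 42.2 CPM, with air at 47.0 to 87.1 CPM (edgeR adjusted p = 0.0335). Vasp also fell with vehicle, to 30.9 to 43.6 CPM (-0.77 ± 0.18 log2, edgeR adjusted p = 0.0194), in comparisons that share the air libraries, and was the 1 of 15 called there against the 16.2% of all genes. The median of the 15 was 0.08 log2 with nicotine and -0.19 log2 with vehicle, against 0.018 and 0.015 over all genes. The phosphodiesterases of cyclic GMP Pde5a and Pde9a were at 4.26 to 6.72 and 2.57 to 6.91 CPM and did not pass in any comparison.

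Of 25 transcription factors and cofactors that act on the Nppa and Nppb promoters, 4 fell with vehicle after the 3-week start and 0 rose, and Nppa and Nppb did not pass there. Srf, the serum response factor, held 90.1 to 138.6 CPM with vehicle and 129.6 to 229.9 CPM in air (-0.68 ± 0.19 log2, edgeR adjusted p = 0.0284). Gata4 changed by -0.60 ± 0.17 log2 (0.0313), Hand2 by -0.54 ± 0.17 (0.0379) and Mef2d by -0.41 ± 0.12 (0.0330). The median of the 25 was -0.31 log2 against 0.015 over all genes, and 4 of 25 is near the 16.2% background. In the 8 other comparisons 0 of 25 passed, with 0 to 6 of them at an unadjusted p under 0.05. Of 8 measured genes linked to load in cardiomyocytes, Rcan1, an inhibitor of calcineurin and target of its signalling, fell with nicotine (-1.12 ± 0.25 log2, adjusted p = 0.0394) and with vehicle (-1.11 ± 0.27, 0.0221) after the 3-week start, and Myh7, the slow myosin heavy chain, rose with vehicle (0.54 ± 0.18, 0.0477). That is 1 of 8 with nicotine against 0.813% of all genes, and 2 of 8 with vehicle against 16.2%. The median of those 8 was -0.13 log2 with nicotine and -0.27 log2 with vehicle. The vehicle calls of Furin, Vasp, Srf, Gata4, Hand2, Mef2d and Rcan1 were each lost when air library 1 or 5 or vehicle library 1 or 2 was left out, and Myh7 kept its call in 1 of 7 such fits, the one without vehicle library 4. All 8 vehicle calls also ended with the replicate block (3 of 15500 genes called), on the compared groups alone (0 of 14710), and without air libraries 1 and 5, vehicle libraries 1 and 2 or the 3 libraries of highest Myl7 (0 genes called in each). Of the nicotine calls, Pde10a kept its own in 6 of 8 such fits and Vasp and Rcan1 in 2 of 8. On the compared groups alone, without the 3 libraries of highest Myl7, without air libraries 1 and 5 and without nicotine libraries 2 and 5 all 3 nicotine calls ended, and with the replicate block those of Vasp and Rcan1 ended and Pde10a kept its own (edgeR adjusted p = 0.0416). Without air libraries 1 and 5 together, Rcan1 with nicotine was -0.43 log2 and Vasp -0.36 log2.

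The genes whose levels ran most like each of the 6 over the 23 libraries were sought among 11510 genes by Pearson r of log2 CPM. For Nppb they were Btg2, Abra and Tnfrsf12a (r = 0.880, 0.880 and 0.874, and 0.801, 0.692 and 0.662 after removal of the group means). For Nppa they were Bace2, Ndufaf5 and Medag, at lower r of 0.789, 0.713 and 0.691. Npr1 ran most like Gdpd3, Ifi35 and Rasgrp2 (0.942 to 0.935), Npr2 like Tars2, Arfip2 and Zfp692 (0.951 to 0.942), Npr3 like Iws1, Ddx3x and Tsc22d2 (0.897 to 0.888), and Corin like Mut, Ppp2r3a and Acadsb (0.960 to 0.953). These are the highest of 11510 values each, so they carry no test.

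Annotated antisense genes overlap exons of 4 of the 6, by 532 of 865 bases in Nppa (Gm13054), 559 of 4783 in Npr1 (Gm16048), 266 of 4667 in Npr2 (Gm12473) and 147 of 5400 in Corin (Gm20647), and Gm5144, annotated as a noncoding RNA of a bidirectional promoter, overlaps 321 of 9389 bases of Npr3. Counts of the 4 antisense genes were 12 to 55, 4 to 22, 22 to 84 and 0 to 4, against at least 861, 441, 801 and 1609 for the sense genes. The strand setting of the counting was not found in the labels or headers, so reads from both strands cannot be told apart.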

How the data were processed

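RNA of left ventricles was sequenced in 23 libraries, and the file that the authors deposited holds raw counts of reads, as whole numbers for each gene. The submitters' processing notes name DESeq2, featureCounts, Subread 1.5.2, STAR 2.5.2b and Trimmomatic 0.36, with build, annotation and strand setting not given in the sources used here. For nicotine against air, tables that the authors deposited hold log2 fold changes and p-values, and columns of normalized signal per library that the authors deposited were not analysed here. Exonic lengths came from GENCODE vM21 and promoters from RefSeq (GRCm38.p6). In R 4.3.3, edgeR 4.0.16 kept 15500 of 49315 genes (filterByExpr, minimum count 10), scaled by TMM and fitted 6 groups together with robust quasi-likelihood (17 residual degrees of freedom). Benjamini-Hochberg adjustment covered all genes of the fit, and the threshold was 0.05. The scripts were tested on simulated data. DESeq2 1.42.0 and other alternatives are in the closing section. Replicates of a group differed beyond sampling noise (chi-square per degree of freedom 4.30 to 106.8 over 33 pairs). The members, the lists and the libraries left out were chosen with earlier results of these data known. Genes named are the 6 members, up to 4 called genes per pathway list and the 3 most alike genes per member.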

Additional observations from a re-analysis of the deposited data

Results flagged for a closer look

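Nppb with nicotine lay on opposite sides of air at the 2 starting ages, though neither difference from air passed the threshold. All 4 nicotine libraries lay under the air mean after the 3-week start (152 to 209 against a mean of 352 CPM) and all 4 above it after the 3-month start (478 to 705 against 324 CPM). The difference of the effects was -1.7038 log2 (edgeR adjusted p = 0.0501 over all genes, 0.000855 to 0.209 over the alternatives). After the 3-month start vehicle alone was 0.70 log2 above air, and nicotine differed from vehicle by 0.089 log2 (unadjusted p = 0.723). In 30 examinations of 6 genes in 5 groups of 4 libraries, no highest or lowest library had a gap to its neighbour above 0.829 of the range of its group (Dixon's 95% limit). The closest was Nppb in 3-week air library 4, at 0.777 of the range. The group of 3 vehicle libraries was not examined in this way.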

How the results depend on the processing

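Of the 6 genes, the number past the threshold changed with the fit in 6 comparisons. For vehicle against air after the 3-week start it was 1 with all libraries and 0 under RLE scaling, without the filter, with the replicate block, on the compared groups alone, without air libraries 1 and 5, without vehicle libraries 1 and 2, or without the 3 libraries of highest Myl7 (the last 2 chosen after seeing the data), and 0 to 4 when single libraries were left out. The 4 came without vehicle library 4, where 44% of all genes passed. For nicotine against air after the 3-week start it was 0, but 1 by DESeq2 or with the length offset, and 0 to 1 with single libraries left out. Over all genes, 126 of 15500 passed with all libraries, 478 by DESeq2 and 117 with the length offset. Without air library 4, the 1 single library whose removal gave a call, 377 of 15485 passed. For nicotine against vehicle at that age it was 0, and 0 to 5 with single libraries left out. The 5 came without vehicle library 4, where 30.3% of all genes passed. It was 3 without nicotine libraries 2 and 5 (also chosen after seeing the data), where 16.9% passed. After the 3-month start, vehicle against air and nicotine against vehicle gave 0, but 2 each on the compared groups alone, where 18.4% and 15.8% of all genes passed. The difference of nicotine effects gave 0, but 1 under RLE scaling, DESeq2, the length offset or the compared groups alone, and 0 to 1 with single libraries left out. Over all genes, 21 of 15500 passed with all libraries, 36 under RLE scaling, 213 by DESeq2 and 43 with the length offset. On the compared groups alone 33 of 14759 passed. Without 3-week air library 2 it was 131 of 15449, and without 3-week air library 4 it was 199 of 15485. The other 3 comparisons kept 0 under each alternative run. The cause of these changes was not tested.

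Directions reversed only without vehicle libraries 1 and 2, to -0.0107 (Npr1), -0.0830 (Npr2), 0.2941 (Npr3) and 0.1630 (Corin) log2 for vehicle against air and to 0.0987 (Npr1), 0.1305 (Npr2) and -0.0442 (Corin) for nicotine against vehicle. This holds for 19 changes of the 6 genes and 11 of pathway genes, which kept direction in 488 of 495 refits. The other 35 changes had adjusted p of 0.539 or more, and 26 of them changed sign in some refit. The replicate block changed the call of Npr1 (adjusted p = 0.0726), and same-numbered libraries did not vary together in most comparisons (r = -0.371 to 0.283 over 20 pairs). With 3 or more shared numbers, at most 1 library correlated best with its own number in any comparison, whereas for nicotine against air after the 3-week start both of the 2 shared numbers did (r = 0.109 and 0.234). Over all genes, calls ranged from 0 to 6969 for vehicle against air and 1 to 478 for nicotine against air after the 3-week start. Depth limited none of the 6 genes, at 148 counts or more, but Nppc and Ostn were too low to test.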
